A study of Mus musculus with 3 samples.

Results

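The enzymes and transporters of glycolysis and of the pentose phosphate pathway were described in mouse bone marrow, as a set of 36 genes picked by name out of the 23282 gene entries of each library. The marrow came from male, 6 weeks old, wild type C57BL/6 mice that received sterile water, the vehicle, by oral gavage for 28 days and were harvested on day 29. The cells were cleared of red blood cells by lysis, and polyadenylated RNA was sequenced from its 3′ end with QuantSeq, in which each transcript gives about 1 fragment, so levels were compared between genes without a length correction. Samples given Asari Radix et Rhizoma, the herbal root that the series sets against water, were not analysed here, so all values are from 1 group of 3 libraries. The libraries held 8104828 to 9168435 gene-assigned reads. The ribosomal RNA precursor entry Rn45s took 18.8%, 20.3% and 18.6% of them in replicates 1, 2 and 3, and its reads stay in the library totals. Levels are given as reads per 1000000 gene-assigned reads of the library (CPM), always in the order of replicates 1, 2 and 3. Nothing in the labels says that the libraries are from separate mice, so the spread between them may be technical.

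Glycolysis splits 1 glucose into pyruvate and then lactate with a net gain of ATP. The pentose phosphate pathway branches off at glucose-6-phosphate, where its oxidative arm makes NADPH and its non-oxidative arm, run by transaldolase and transketolase, exchanges sugar phosphates with glycolysis and makes ribose for nucleotides. Neutrophils, abundant in marrow, are known for relying on glycolysis and for spending NADPH on the oxidative burst, and red cell precursors use the bisphosphoglycerate side branch to tune oxygen release by haemoglobin. Most steps can be run by alternative isoenzymes that differ by tissue, so the choice of isoenzyme was followed at each step.

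Hypoxia-inducible factors, known to drive many of these genes, bind a short core that reads ACGTG or GCGTG. To show what such a core looks like in genes described below, the 250 bases before a RefSeq start are printed for the kinase gene Pgk1, the lactate dehydrogenase gene Ldha and both lactate transporter genes, of which Slc16a3 was lowest and Slc16a1 highest in replicate 2. Capitals mark each ACGTG or GCGTG on either strand (GRCm38.p6, plus strand for all 4 genes). Ldha has a second window (46846832 to 46847081), with 0 ACGTG and 1 GCGTG, and the one printed was picked for its 5 ACGTG matches. Matches were counted on each strand, so a CACGTG, of which this window has 2, counts once per strand.
Pgk1 chrX:106186850-106187099: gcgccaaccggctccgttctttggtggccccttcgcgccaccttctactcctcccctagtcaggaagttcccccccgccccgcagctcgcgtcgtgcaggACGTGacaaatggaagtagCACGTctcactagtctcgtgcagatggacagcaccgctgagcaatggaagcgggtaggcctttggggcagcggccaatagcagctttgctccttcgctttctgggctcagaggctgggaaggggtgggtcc
Ldha chr7:46845554-46845803: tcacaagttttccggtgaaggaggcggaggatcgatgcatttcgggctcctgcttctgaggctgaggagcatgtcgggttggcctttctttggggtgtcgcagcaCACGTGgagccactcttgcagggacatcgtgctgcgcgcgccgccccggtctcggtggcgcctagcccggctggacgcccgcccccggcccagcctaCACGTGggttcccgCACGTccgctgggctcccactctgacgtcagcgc
Slc16a1 chr3:104638414-104638663: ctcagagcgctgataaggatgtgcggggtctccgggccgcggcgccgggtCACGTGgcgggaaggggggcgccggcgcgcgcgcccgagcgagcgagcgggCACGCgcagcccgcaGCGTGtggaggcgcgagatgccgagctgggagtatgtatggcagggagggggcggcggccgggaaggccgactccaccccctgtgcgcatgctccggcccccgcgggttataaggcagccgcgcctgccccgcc
Slc16a3 chr11:120948817-120949066: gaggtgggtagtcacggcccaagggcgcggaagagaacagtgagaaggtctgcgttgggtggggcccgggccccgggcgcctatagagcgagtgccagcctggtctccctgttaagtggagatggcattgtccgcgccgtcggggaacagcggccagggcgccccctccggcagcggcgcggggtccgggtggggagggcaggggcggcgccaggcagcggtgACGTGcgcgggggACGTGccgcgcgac

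ACGTG stood in 38.9% of the 54 windows of members, against 19.6% of all 32851 RefSeq windows of the same 300 bases (250 before and 50 after the start). Either core stood in 72.2% of member windows, against 43.8% of all windows. The member windows were also richer in G and C, with a median of 58.2% against 52.7%, and the part of base composition in these shares was not tested. CACGTG, which contains ACGTG on both strands and is bound by MYC-type factors, was in 9.26% of member windows, against 7.15% of all windows. GGGCGG, a string of G and C alone, was in 55.6% of member windows, against 35.7% of all windows. Windows were matched for 35 of the 36 genes, and 12 genes had more than 1. Some windows of the same gene overlap, as for Aldoa, Pfkm and Eno1, so the same match can count more than once. The Slc16a1 and Slc16a3 windows each hold 2 ACGTG matches, counted over both strands, where those of Slc16a1 are the strands of 1 CACGTG. Tested members with a window were also split by ACGTG in the 250 bases before the start alone. Of these, 9 of 13 with ACGTG and 11 of 19 without it were lowest in replicate 2, against 37.6% of all genes. Their median log2 ratios of replicate 2 to the mean of the others were -0.32 and -0.29. A match is a description of the letters and was not tested as a binding site.

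Together the 36 genes held 0.325%, 0.266% and 0.313% of reads, a mean of 0.301% ± 0.0308 (SD, n = 3). The pentose phosphate enzymes held about as many reads as the glycolytic enzymes, although they are 8 genes against 19. Pentose phosphate reads were 0.137%, 0.119% and 0.137% of the libraries and glycolytic enzyme reads 0.137%, 0.0989% and 0.130%, which gives ratios of 0.999, 1.2 and 1.05. The glycolytic sum holds Eno1 at 0 reads and Gapdh, whose levels are uncertain because of near-identical copies, and leaves out the Eno1b entries. Without the 14 of 36 members that overlap another entry or have a listed copy, the ratios were 1.25, 1.47 and 1.31. This leaves out Aldoa, whose listed copy Aldoart1 had only 2.18, 1.11 and 1.42 CPM. It keeps Gpi1, Pkm, Ldha and Ldhb, which have near-identical copies that are not listed, so these ratios are not free of copies either. The transaldolase gene Taldo1 (chromosome 7, 141392199 to 141402968) and the transketolase gene Tkt (chromosome 14, 30548359 to 30574720) were the most abundant members. Of the 36 genes, 35 had reads, and 33 had the 30 reads over 3 libraries needed for the test. The exact 95% Clopper-Pearson interval of a library's level, which covers counting error only, reached a median of 9.66% of the value to either side over these 33 genes and at most 67.8%. In the order of mean levels, 28 of 32 neighbouring pairs had overlapping ranges. The ranges were apart between Tkt and the next gene Pgd, between Pgls and Slc16a1, between G6pdx and Pfkp, and between Pfkm and Pfkfb2.

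**Figure D1:**
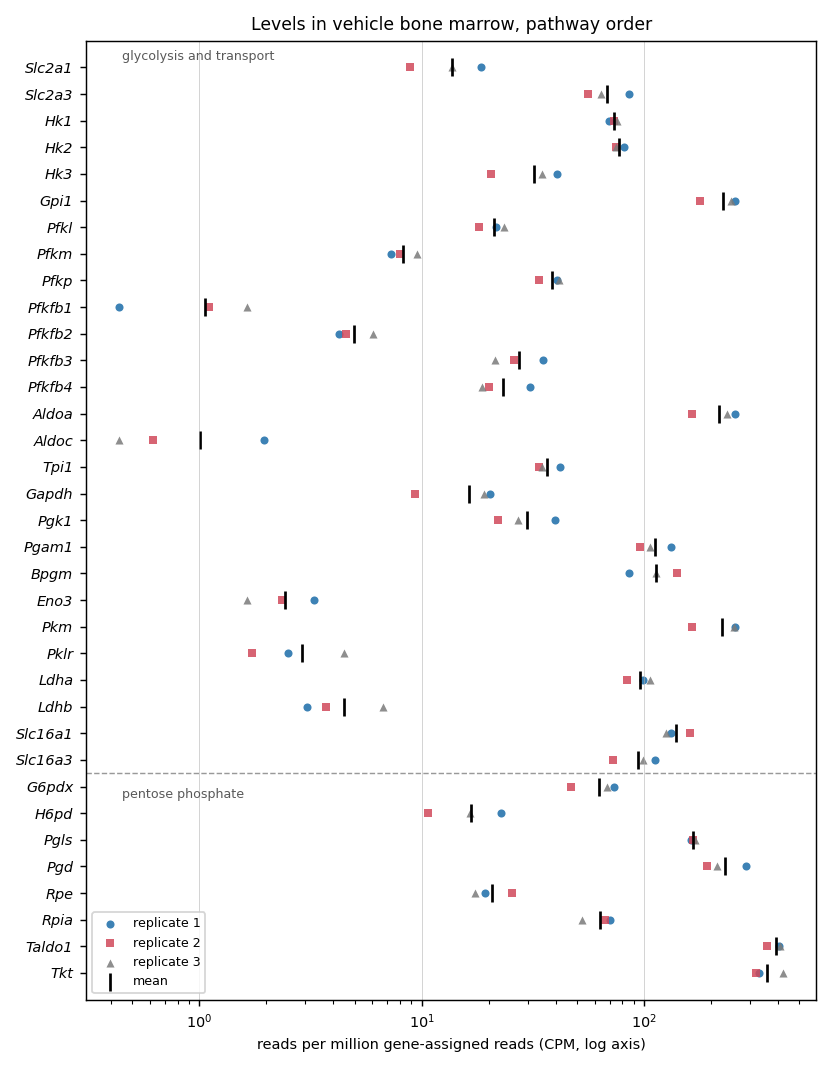
Level of each member with reads in each of the 3 vehicle libraries (points) and their mean (bar), in CPM on a log axis, with genes in pathway order from top to bottom. Taldo1 and Tkt stand highest, and the replicate 2 point lies left of the others for most glycolytic genes but right of them for Bpgm and Slc16a1.

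Most members differed between the libraries by more than counting noise, and replicate 2 was the low library for most of them. Each library was set against the other 2 with an exact two-sided binomial test, with Benjamini-Hochberg adjustment over all tested genes at 0.05. By this test 26 of 33 members differed, against 56.5% of all 11833 genes tested. Among genes with at least 300 reads, 24 of 28 members differed, against 66.0% of 7128 genes. Replicate 2 held the lowest level for 21 of 33 members, against 37.6% of all genes. Both held for 19 of 33 members, against 21.4% of all genes, and for 18 of the 28 with at least 300 reads, against 26.0%. The median log2 ratio of replicate 2 to the mean of the others was -0.30 over the 33 members and -0.06 over all genes tested. The median CV between libraries was 21% for the members and 17.1% for all tested genes.

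On library totals the median gene of replicate 1 lay 0.15 log2 units above the other libraries, and 0.01 above them with trimmed-mean (TMM) scaling. Relative to that shift, 20 of 33 members were lowest in replicate 2 with TMM scaling, against 34.4% of all genes, and 18 of those differed. Which library was highest did depend on the scaling. On library totals 19 members were highest in replicate 1, 3 in replicate 2 and 11 in replicate 3, and with TMM scaling 12, 4 and 17. Of all 11833 genes tested, 5827, 3307 and 2699 were highest in replicates 1, 2 and 3 on library totals. Replicate 1 was thus the most frequent highest library for all genes as well. The same counts over all genes were not taken with TMM scaling. Without replicate 2, 15 of 33 members differed, against 39.0% of all genes, so the excess of members over all genes was much smaller. Without replicate 1 and without replicate 3, 21 of 33 members differed, against 34.8% and 38.5% of all genes.

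**Figure D2:**
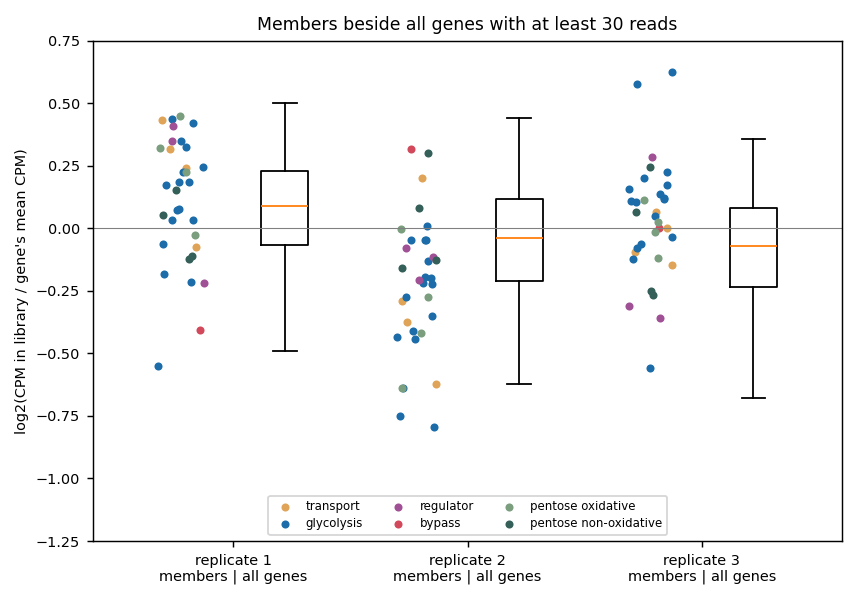
Each of the 33 tested members (points, coloured by branch) and all genes with at least 30 reads (boxes with quartiles, whiskers at the 5th and 95th percentiles) as log2 of the library's CPM over the gene's own mean. The points of replicate 2 lie mostly below 0, with the Bpgm point among the few above it, while the box of all genes has its median at -0.04.

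Neutrophil markers were low in the same library. All 14 measured markers of a list of 15 (Ly6g was not analysed here) differed and were lowest in replicate 2. Each had at least 300 reads, and of all such genes 26.0% differed and were lowest in replicate 2. The markers held 9.16%, 7.09% and 9.37% of reads. Glycolytic enzyme reads per neutrophil marker read were 0.0150, 0.0140 and 0.0139, and for pentose phosphate enzymes 0.0150, 0.0167 and 0.0146. Of 839484, 574569 and 856426 neutrophil marker reads, S100a9 gave 362786, 274311 and 365658 and S100a8 273681, 164724 and 298221. The sum and these ratios thus mostly reflect S100a9 and S100a8. In bulk marrow fewer cells of a type and less RNA per cell cannot be told apart, and the part of neutrophil content in the levels of the members was not tested. Erythroid markers held 6.72%, 9.96% and 10.1% of reads, monocyte and macrophage markers 0.178%, 0.168% and 0.183%, and B cell markers 0.0704%, 0.0713% and 0.0561%. T and NK cell markers held 0.00644%, 0.00528% and 0.00647%, and megakaryocyte and platelet markers 0.0475%, 0.0389% and 0.0389%. Skeletal muscle, rich in its own glycolytic isoenzymes, was represented by 0.00160%, 0.00171% and 0.00136% of reads, with Myh4 at 0 reads. The 4 hepatocyte markers had 0 reads.

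**Figure D3:**
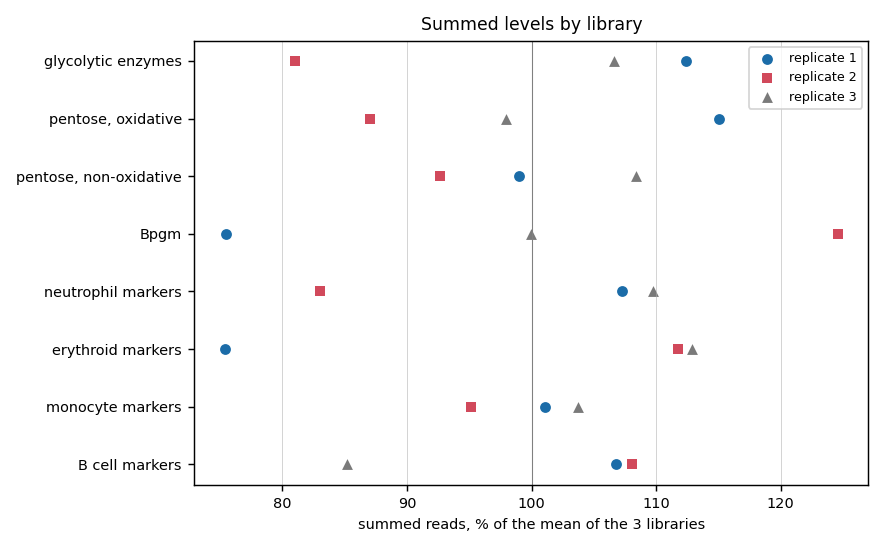
Summed reads of each branch and of each marker list, with every library (points) as a percent of the mean of the 3 libraries. Glycolytic enzymes and neutrophil markers share replicate 2 as their low library, while Bpgm and the erythroid markers share replicate 1.

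Of the pair of glucose transporter members, reads came mostly from Slc2a3, which encodes the high-affinity transporter GLUT3. Fewer came from Slc2a1, which encodes the widespread transporter GLUT1. Slc2a3 had 85.2, 55.8 and 63.9 CPM and Slc2a1 had 18.4, 8.88 and 13.7 CPM. The ranges of these genes did not overlap, and Slc2a3 took 82.2%, 86.3% and 82.4% of the reads of the pair, with overlapping exact 95% intervals. Both genes were lowest in replicate 2 and highest in replicate 1, and both differed between libraries (exact binomial test, adjusted p = 1.74e-11 for Slc2a3 and 3.63e-05 for Slc2a1). Without replicate 1, Slc2a3 was not called by the exact test (adjusted p = 0.0760).

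Hexokinase, which traps glucose in the cell as glucose-6-phosphate, was split between 3 isoenzymes. Hk1, the mitochondria-bound housekeeping form, had 69.8, 73.4 and 75.5 CPM, and Hk2, the form induced by growth signals and hypoxia, had 81.1, 74.5 and 75 CPM. Hk3, the form of myeloid cells, had 40.8, 20.6 and 34.8 CPM. Hk1 and Hk2 were close to each other in all libraries and did not pass the test (exact binomial test, adjusted p = 0.634 and 0.304), while Hk3 did (6.02e-12) and was lowest in replicate 2. With TMM scaling Hk1 passed the exact test as well (adjusted p = 0.00541), with its lowest level in replicate 1. The share of Hk3 in hexokinase reads was 21.3%, 12.2% and 18.8%, and the interval of replicate 2, from 10.5% to 14.1%, lay below those of the other libraries, from 19.4% to 23.3% and from 16.9% to 20.7%. Without replicate 2 Hk3 was not called by the exact test (adjusted p = 0.0886). On the other strand Hk3 exons overlap the entry Unc5a, which had 24.2, 13 and 18.7 CPM, and without a stated strand setting their reads cannot be told apart.

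Gpi1, which turns glucose-6-phosphate into fructose-6-phosphate, was the fourth most abundant member. It had 256, 178 and 247 CPM, with replicate 2 lowest and the other libraries close to each other (exact binomial test, adjusted p = 2.09e-29, and 0.315 without replicate 2).

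Phosphofructokinase, the committed step of glycolysis, had much lower levels than the step before it, with 69.4, 59.7 and 74.5 CPM for all 3 isoenzymes together. Pfkp, the platelet type, made up 58.3%, 56.2% and 55.7% of these reads. Pfkl, the liver type, followed at 31.1%, 30.4% and 31.6%, and Pfkm, the muscle type, at 10.5%, 13.4% and 12.8%. The exact intervals of all 3 shares overlapped between libraries. Pfkp had 40.5, 33.6 and 41.5 CPM and passed the test near its threshold (exact binomial test, adjusted p = 0.0283). It was not called with the authors' scaling (adjusted p = 0.050), with totals that leave out the 20 most abundant entries (0.0749), without replicate 2 (0.828) or without replicate 3 (0.0510). Pfkl had 21.6, 18.1 and 23.5 CPM (adjusted p = 0.114 by the same exact test, 0.0417 with TMM scaling and 0.0454 without replicate 1), and Pfkm had 7.31, 8.02 and 9.52 CPM (0.439). Exons of Pfkm and Pfkp overlap the entries Senp1 and Pitrm1 on the other strand.

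The PFKFB enzymes, which make and remove the allosteric activator of phosphofructokinase, had their reads mostly from Pfkfb3 and Pfkfb4, both known as hypoxia-inducible. Pfkfb3 had 35.0, 26.0 and 21.5 CPM and Pfkfb4 had 30.8, 20.1 and 18.7 CPM, so replicate 3 rather than replicate 2 was lowest. These genes differed on all 3 libraries (exact binomial test, adjusted p = 3.41e-06 and 3.98e-07) but not without replicate 1 (0.121 and 0.654). Pfkfb2, the heart type, had 4.25, 4.57 and 6.02 CPM (exact binomial test, adjusted p = 0.318). Pfkfb1, the liver and muscle type, had 4, 9 and 15 reads and was not tested. The pair of Pfkfb3 and Pfkfb4 made up 49.7% and 43.7% of PFKFB reads in replicate 1, 50.2% and 38.8% in replicate 2, and 44.9% and 39.1% in replicate 3.

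Aldolase, which cleaves the sugar into trioses, was almost entirely Aldoa, at 99.2%, 99.6% and 99.8% of aldolase reads. Aldoa had 255, 164 and 235 CPM, with replicate 2 lowest (exact binomial test, adjusted p = 1.45e-37). Aldoc, the brain type, had 18, 5 and 4 reads and was not tested. Its mean was 1.01 ± 0.834 CPM (SD, n = 3). Tpi1, which interconverts the trioses, had 41.8, 33.6 and 34.8 CPM and was called on library totals (exact binomial test, adjusted p = 0.0173) but not with TMM scaling (0.481) or without replicate 1 (0.793).

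Gapdh (chromosome 6, 125161715 to 125166467, minus strand), which oxidises the triose, had a recorded level below those of the neighbouring steps. The recorded level of enolase was far below those of its own neighbouring steps. Gapdh had 20.4, 9.38 and 19 CPM, against 41.8, 33.6 and 34.8 CPM for Tpi1 and 39.7, 22 and 27.3 CPM for Pgk1. Aldoa reads outnumbered those of Gapdh 12.5-fold, 17.5-fold and 12.3-fold, and the Gapdh mean ranked only 6020 among the entries of the files. Eno1 (chromosome 4, 150236721 to 150248879) was at 0 reads in all 3 libraries, which allows up to 0.114 CPM over all 26410388 reads if its reads could be counted, while the muscle enolase gene Eno3 had 30, 19 and 15 reads. Both Gapdh and Eno1 have near-identical copies. The last 300 bases of Gapdh transcripts matched 132 other annotated genes at 95% identity or more over at least 100 bases, 125 of them pseudogenes, and those of Eno1 matched 5, with 4 pseudogenes. The fifth, Eno1b, stood in the files in a pair of entries with 255, 165 and 278 reads and with 262, 168 and 261 reads, together 56.4, 41.1 and 59.0 CPM. The handling of reads with several matches remains not given in the sources used here. Both levels are therefore uncertain, and whether reads of Eno1 or Gapdh were dropped or assigned to copies was not tested. Of the 6 Gapdh copies listed in the files, Gm12070 was the highest, at 6.44, 2.34 and 4.82 CPM. Gapdh, its copy Gm12070 and both Eno1b entries were lowest in replicate 2. Gapdh differed between libraries (exact binomial test, adjusted p = 9.13e-09), but not without replicate 2 (0.654). Its exons also overlap the entry Iffo1 on the other strand, at 9.16, 5.43 and 4.92 CPM.

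In all, 8 of the 36 members had at least 1 such copy, and 3 had a copy listed in the files. Besides Gapdh and Eno1 these were Ldha with 6 copies, Aldoa, Tpi1 and Pkm with 2 each, and Gpi1 and Ldhb with 1 each. Aldoart1, the listed copy of Aldoa, had 2.18, 1.11 and 1.42 CPM.

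The lower part of glycolysis ran from phosphoglycerate kinase to lactate dehydrogenase. Pgk1, which makes the first ATP of this stretch, had 39.7, 22 and 27.3 CPM, and Pgam1, the mutase that follows it, had 133, 95.7 and 107 CPM. Each was lowest in replicate 2 and highest in replicate 1 (exact binomial test, adjusted p = 2.60e-09 for Pgk1 and 9.05e-11 for Pgam1), and neither was called without replicate 1 (0.0755 and 0.0597). Pyruvate kinase, the last ATP-making step, was 99.0%, 99.0% and 98.3% Pkm, the isoenzyme gene of leukocytes and most other tissues. Pkm had 255, 165 and 253 CPM (exact binomial test, adjusted p = 1.23e-44, and 0.823 without replicate 2). Pklr, the liver and red cell form, had 23, 14 and 41 reads, or 2.51, 1.73 and 4.49 CPM. It was called on all 3 libraries (exact binomial test, adjusted p = 0.00863) but not without replicate 2 (0.0602) or replicate 3 (0.461), and the entry Hcn3 overlaps it on the other strand. The 3′ tag counts used here do not separate the M1 and M2 splice forms of Pkm.

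Of the lactate dehydrogenase pair Ldha and Ldhb, nearly all reads came from the A subunit gene Ldha, whose product favours lactate formation. Ldha had 98.6, 84.1 and 106 CPM and Ldhb 3.05, 3.70 and 6.68 CPM. The share of Ldha in the reads of this pair was 97.0%, 95.8% and 94.1%. The exact intervals of replicates 1 and 3, from 95.7% to 98.0% and from 92.4% to 95.4%, did not overlap. Both genes differed between libraries (exact binomial test, adjusted p = 0.000143 for Ldha and 0.00197 for Ldhb). Ldha was not called without replicate 2 (0.214), nor Ldhb without replicate 3 (0.643). Ldhc, a gene of the other isoenzymes that is not in these shares, had 6.76, 1.60 and 8.54 CPM. It stood above Ldhb in replicates 1 and 3 and differed between libraries (exact binomial test, adjusted p = 2.07e-09).

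Lactate leaves or enters cells through monocarboxylate transporters, and here the isoform balance shifted between libraries. Slc16a1, which encodes the widespread transporter MCT1, had 132, 160 and 126 CPM, and Slc16a3, which encodes MCT4, the exporter of strongly glycolytic cells, had 112, 72.8 and 98.7 CPM. Replicate 2 was thus highest for Slc16a1 and lowest for Slc16a3. Slc16a1 took 54.2%, 68.8% and 56.0% of the reads of the pair, and the interval of replicate 2, from 66.6% to 70.8%, lay above the others, from 52.1% to 56.3% and from 53.8% to 58.2%. These genes differed between libraries (exact binomial test, adjusted p = 2.01e-08 for Slc16a1 and 5.95e-14 for Slc16a3), and without replicate 2 Slc16a1 was not called (0.354).

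**Figure D4:**
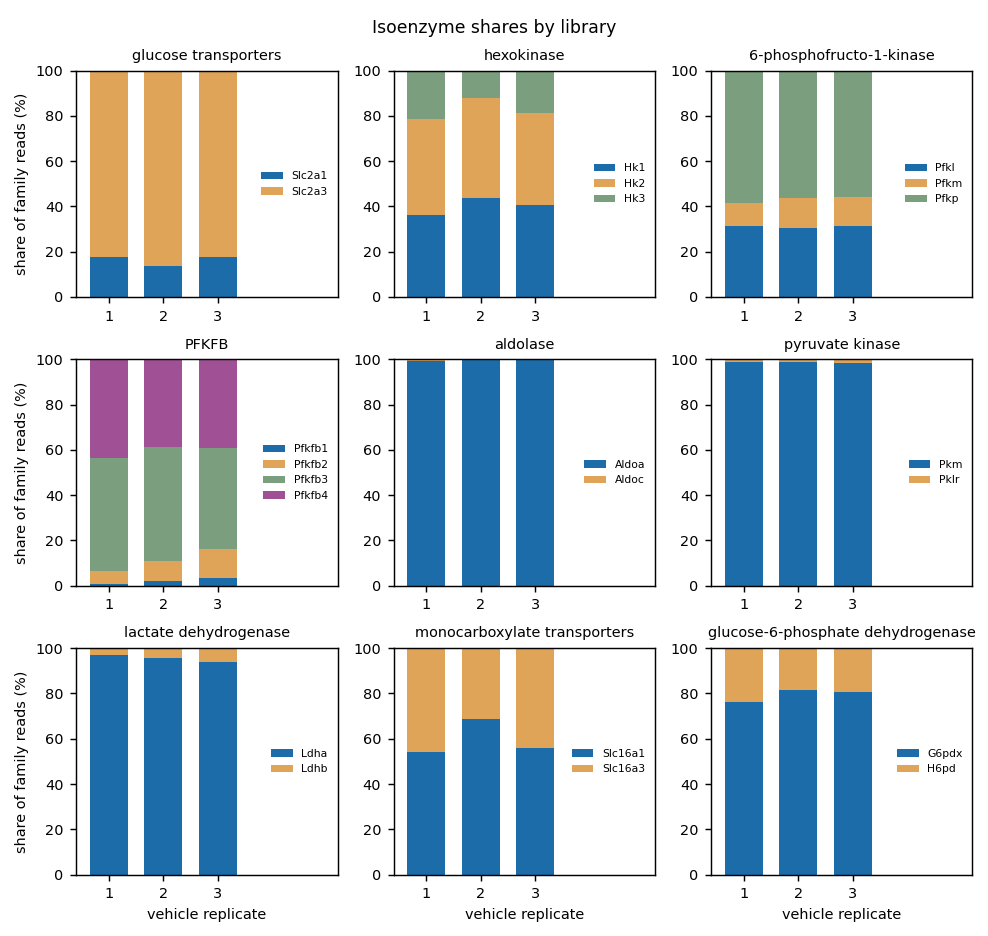
Share of each isoenzyme in the reads of its family (percent) for vehicle replicates 1, 2 and 3. Aldolase, pyruvate kinase and lactate dehydrogenase are nearly all Aldoa, Pkm and Ldha, while hexokinase and the monocarboxylate transporters are mixed, with less Hk3 and less Slc16a3 in replicate 2.

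Bpgm, which makes bisphosphoglycerate in red cell precursors, went the other way from the glycolytic enzymes. It had 85.4, 141 and 113 CPM, highest in replicate 2 and lowest in replicate 1 (exact binomial test, adjusted p = 7.36e-20). The ratio of Bpgm to Pgam1 was 0.644, 1.47 and 1.06. The summed erythroid markers, given above, and 6 of the 8 single markers were also lowest in replicate 1. Tfrc and Car2 were lowest in replicate 3. Of all genes tested, 20.02% were lowest in replicate 1 on library totals and 33.18% with TMM scaling, so this share depends on the scaling. The marker count is given on library totals only. Bpgm reads per erythroid marker read were 0.00127, 0.00142 and 0.00112. Of 616219, 807507 and 919214 erythroid marker reads, Hba-a1 gave 436578, 575633 and 664492 and Hbb-bs 165093, 215687 and 238360, so the sum mostly reflects these genes. The part of erythroid content in the level of Bpgm was not tested.

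The oxidative arm of the pentose phosphate pathway was led by Pgd, its second NADPH-making enzyme. Pgd had 288, 191 and 213 CPM, and G6pdx, the X-linked first enzyme, had 73.4, 47.0 and 68.0 CPM, so that Pgd reads were 3.93-fold, 4.06-fold and 3.13-fold those of G6pdx. H6pd, the form of the endoplasmic reticulum, had 22.8, 10.7 and 16.5 CPM and made up 23.7%, 18.6% and 19.6% of glucose-6-phosphate dehydrogenase reads. These 3 genes were lowest in replicate 2 and differed between libraries (exact binomial test, adjusted p = 1.99e-39 for Pgd, 2.67e-11 for G6pdx and 2.29e-06 for H6pd). G6pdx, whose exons overlap the entry Ikbkg on the other strand, was not called without replicate 2 (0.282). Pgls, the lactonase between these steps, was the steadiest member on library totals, with 163, 166 and 169 CPM and a CV of 1.79% (adjusted p = 1 by the exact binomial test). With TMM scaling it had 153, 169 and 177 CPM and was called by the exact test (adjusted p = 0.000897). Pgls shares exon positions with the entry Fam129c on its own strand, at 90.7, 88.8 and 62.8 CPM.

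The non-oxidative arm held more reads than the oxidative arm, by 1.5-fold, 1.86-fold and 1.93-fold. Taldo1 had 406, 359 and 409 CPM, with replicate 2 lowest (exact binomial test, adjusted p = 1.08e-07, and 0.830 without replicate 2). Tkt had 328, 320 and 422 CPM, with replicate 3 standing apart (exact binomial test, adjusted p = 1.21e-33, and 0.516 without replicate 3). Its lowest library was replicate 2 on library totals and replicate 1 with TMM scaling. Rpia, which makes ribose-5-phosphate, had 70.2, 66.8 and 52.4 CPM (exact binomial test, adjusted p = 8.91e-06, and 0.537 without replicate 3). Rpe, the epimerase, had 19.2, 25.5 and 17.4 CPM and was highest in replicate 2 (exact binomial test, adjusted p = 0.00202, and 0.515 without replicate 2). The entry Kansl1l overlaps Rpe on the other strand and was also highest in replicate 2, at 29.4, 39.4 and 28.8 CPM.

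The wider pathway was read from 5 lists of other genes, whose counts stand against 56.5% of all genes that differed and 21.4% that differed and were lowest in replicate 2. They are given with the median log2 ratio of replicate 2 to the mean of the others beside -0.06 over all genes tested. That median was -0.31 for glycogen and glucose-6-phosphate genes, -0.30 for other transporters and tissue isoenzymes, -0.21 for pentose use and NADPH, -0.07 for pyruvate fate and -0.04 for HIF and other regulators. Of 14 glycogen and glucose-6-phosphate genes, 13 were tested and 9 differed, 8 of them lowest in replicate 2, where the first count is not far from the share of all genes. The liver-type glycogen phosphorylase gene Pygl led this list with 398, 333 and 489 CPM, followed by Pgm2l1 with 58.0, 64.5 and 46.7 CPM and Ugp2, which makes UDP-glucose, with 55.6, 42.6 and 45.7 CPM. The level of Pygl was thus like that of Taldo1. Of 7 genes of pentose use and NADPH, 6 were tested and 4 differed, near the share of all genes, with 3 of them lowest in replicate 2. The glutathione reductase gene Gsr, a consumer of NADPH, had 123, 76.5 and 79.2 CPM, the NADPH-making isocitrate dehydrogenase gene Idh1 83.7, 85.4 and 61.6 CPM, and Prps1, which makes phosphoribosyl pyrophosphate, 63.7, 52.2 and 56.1 CPM.

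Among 21 other transporters and tissue isoenzymes, 10 were tested and 6 differed, near the share of all genes, with 3 of them lowest in replicate 2. Adpgk, whose product phosphorylates glucose with ADP, had 140, 119 and 137 CPM, above each hexokinase gene in every library. Emb and Bsg, whose products carry monocarboxylate transporters to the membrane, had 127, 102 and 115 CPM and 75, 83.2 and 94.9 CPM. Hkdc1, Pgk2 and Ldhd had 0 reads in all libraries. Of 17 genes of pyruvate fate, 15 were tested and 7 differed, with 2 of them lowest in replicate 2, both below the shares of all genes. The pyruvate dehydrogenase gene Pdha1 had 71.1, 66.0 and 67.2 CPM, the pyruvate carrier gene Mpc2 59.7, 58.2 and 66.2 CPM, and the dehydrogenase subunit gene Pdhb 48.2, 32.3 and 40.9 CPM. Of 13 genes of HIF and other regulators, 12 were tested and 5 differed, with 2 of them lowest in replicate 2, both below the shares of all genes. The oxygen-sensing hydroxylase gene Egln2 had 36.6, 29.2 and 44.0 CPM, Hif1a 34.1, 28.3 and 27.8 CPM, and Mlx, a partner of the glucose-sensing factors, 26.8, 23.8 and 23.5 CPM.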

How the data were processed

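Gene expression was measured by 3′ RNA sequencing in 3 vehicle libraries of mouse bone marrow. Per the labels' protocols, libraries were made from 500 ng of RNA with a Lexogen QuantSeq kit. Bowtie2, bedtools and mm10 are named in the submitters' processing notes. Versions, annotation, strand setting and the handling of multiply matching reads remain not given in the sources used here. The authors deposited 1 log2 value per gene and library. From the values these are log2(x + 1) with a pseudocount of 1, where x is a whole multiple of 1 step for 100% of entries (relative tolerance 1e-06), so whole reads were recovered, and the test designed for read counts was run on them. CPM was computed on totals of recovered reads. Genes with at least 30 reads were tested library by library, as 1 against the remaining 2, by an exact binomial test (two-sided), keeping the lowest p multiplied by 3, with Benjamini-Hochberg adjustment over all genes at 0.05 (SciPy 1.17.1). The test sets libraries against counting noise only. It was run on simulated counts that hold counting noise alone, which cannot show how it behaves where libraries spread more widely. All 36 members are named, and of each other list the 3 most abundant genes and genes at 0, except an item that is not reported here. Other genes named are copies or overlapping entries, taken up after values were seen, as were Ldhc, Slc2a4, Slc2a6 and Slc2a8 from these lists. The members and lists were chosen with earlier results of these data known. Positions, overlaps and transcripts are from GENCODE M21 (GRCm38), copies from BLAST 2.17.0, and promoter windows from RefSeq (GRCm38.p6). Alternatives covered scaling, read minimum, test, pseudocount and each library left out.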

Additional observations from a re-analysis of the deposited data

How the results depend on the processing

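The count of 26 members that differed stayed within 1.5 times under every scaling, read minimum and the chi-square test, at 25 to 28. Of all genes, 45.8% to 60.6% differed under these settings. The count was 15 without replicate 2, where 39.0% of all genes differed. It was 21 without replicate 1 and without replicate 3, where 34.8% and 38.5% of all genes differed. The count of members lowest in replicate 2 was 19 to 21 under all scalings and minimums, against 33.2% to 38.6% of all genes. The summed level was 0.262% of reads without Taldo1, its most abundant member, and 0.233% without the 14 members that overlap another entry or have a listed copy. Without those members, 22 remained, and the ratio of pentose phosphate to glycolysis reads was 1.34 in place of 1.08. Both moves follow from leaving out members. Which library was highest for most members changed with the scaling, as did the lowest library of Tkt. No paired analysis was possible because there is 1 group. At 30 reads the intervals are wide, so shares of Aldoc, Pklr, Eno3 and Pfkfb1 are poorly fixed.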
